A study of Homo sapiens with 6 samples.

Results

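In all, 10 transcription factors that build the neural crest and the melanocyte were followed in A-375 cells: TFAP2A, TFAP2B, TFAP2C, SOX10, SOX9, PAX3, MITF, FOXD3, SNAI2 and LEF1. They were chosen by name, with earlier results of these data known, and all 10 were found among the 21631 gene symbols of the deposited count table. A-375 is an established human melanoma line. RNA was sequenced from 3 libraries carrying a control guide (sgCTRL) and 3 carrying a guide against SEPHS2 (sgSEPHS2), which the series describes as knockout cells; SEPHS2 makes the selenium donor for selenocysteine. The labels name no further treatment, time point, cell clone or separate culture for either group, so the p-values below measure the spread between these libraries, which may be technical. A guide effect and a difference in founding cells cannot be told apart.

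The neural crest is the embryonic cell population at the border of the neural plate that gives rise to melanocytes, peripheral glia and much of the facial skeleton. AP-2 proteins, PAX3 and FOXD3 act early in its specification, SNAI2 in the release of cells from the epithelium, and SOX9 and SOX10 in the maintenance and fate of the migrating cells. SOX10, PAX3, CREB and LEF1 with beta-catenin act on the melanocyte promoter of MITF, whose protein in turn switches on pigment genes. Melanoma cells keep parts of this network, and lines differ in how much MITF and SOX10 they hold.

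Library totals ranged from 34606145 to 43405579 counted reads, so that 1 read was worth 0.0232 to 0.0293 CPM (the count scaled to library size, here with TMM factors, which correct for composition). SEPHS2 mRNA was not lower in the libraries labelled knockout, at 173 ± 3.85 CPM against 156 ± 3.32 CPM in the controls (SD, n = 3 per group, log2 fold change 0.15, edgeR adjusted p = 0.00401). A gene-level count does not show whether the reading frame was changed, and every direction below therefore rests on the labels. Of the fixed melanoma markers, CSPG4 stood at 485 ± 20.3 CPM in the control and 311 ± 1.58 CPM in the sgSEPHS2 libraries (SD, n = 3; log2 fold change -0.64, edgeR adjusted p = 6.34e-11). SOX10 and MITF, being members, were left out of this marker list and are taken up below. Of its 8 tested genes, 2 fell (CSPG4 and PRAME, the latter by 0.12 on the log2 scale) and 1 rose (MCAM, 0.12). Of all 16910 tested genes, 45.4% passed in either direction (edgeR adjusted p under 0.05). The summed level of the list without SOX10 and MITF was 979 to 1036 CPM in the control and 832 to 863 CPM in the other libraries. The call of MCAM was lost without control replicate 2 or 3 or sgSEPHS2 replicate 2 (edgeR adjusted p = 0.0517 to 0.103), and that of PRAME without any 1 of the controls or sgSEPHS2 replicate 1 (edgeR adjusted p = 0.0574 to 0.142). S100B stood at 33.9 ± 1.53 CPM in the control group, whereas the pigment genes MLANA and PMEL stood at 1.17 ± 0.268 and 0.964 ± 0.172 CPM and TYR had no read in any control library (SD, n = 3). The defining pigment markers were thus near 0 in cells labelled melanoma. Summed markers of other cell types stood at 103 to 104 CPM in the control and 123 to 131 CPM in the sgSEPHS2 libraries for keratinocytes, 26.8 to 31.2 and 26.8 to 31.7 for fibroblasts, 9.79 to 10.4 and 8.29 to 9.38 for endothelial cells, 3.51 to 4.43 and 6.52 to 7.21 for immune cells, and 244 to 252 and 195 to 202 for Schwann cells. Of these lists 3 of 4 tested keratinocyte, 5 of 8 fibroblast and 1 of 4 endothelial genes passed the test. Among immune and Schwann cell genes 1 of 2 and 2 of 8 passed. With 45.4% of all tested genes passing, counts from such short lists do not set the markers apart. KRT5, KRT1, DSG3, EMCN, CD3E and TYROBP were not analysed here, and the part of any such cells in the results was not tested.

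The sequences just before the start site are shown for the 3 factors whose RefSeq promoter window held a searched motif, since some of these motifs are those of other members. Of the 10 factors, 6 had a window in the RefSeq promoter table (TFAP2A, TFAP2B, PAX3, MITF, FOXD3 and LEF1). Searched on both strands were GCCNNNGGC for AP-2, the E-box CACGTG for MITF with its variant CATGTG, the SOX motif AACAAAG with the shorter form AACAAT, the TCF and LEF motif ATCAAAG, the SNAI2 motif CACCTG and the CREB motif TGACGTCA, and the matches printed do not overlap one another. Each line gives the 250 bases before the start, 5′ to 3′, with matches in capitals.
MITF (GRCh38.p14 chr3:69936342-69936591, + strand): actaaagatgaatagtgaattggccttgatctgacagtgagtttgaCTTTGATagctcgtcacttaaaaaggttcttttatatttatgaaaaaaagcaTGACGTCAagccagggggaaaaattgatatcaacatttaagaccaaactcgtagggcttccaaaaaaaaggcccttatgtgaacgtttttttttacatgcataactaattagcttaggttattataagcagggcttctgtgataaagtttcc
FOXD3 (GRCh38.p14 chr1:63322317-63322566, + strand): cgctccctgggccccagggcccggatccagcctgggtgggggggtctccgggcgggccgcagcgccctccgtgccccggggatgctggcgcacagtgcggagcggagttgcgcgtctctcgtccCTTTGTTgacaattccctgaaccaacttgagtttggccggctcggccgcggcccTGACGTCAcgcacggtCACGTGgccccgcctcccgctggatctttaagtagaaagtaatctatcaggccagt
TFAP2B (GRCh38.p14 chr6:50818621-50818870, + strand): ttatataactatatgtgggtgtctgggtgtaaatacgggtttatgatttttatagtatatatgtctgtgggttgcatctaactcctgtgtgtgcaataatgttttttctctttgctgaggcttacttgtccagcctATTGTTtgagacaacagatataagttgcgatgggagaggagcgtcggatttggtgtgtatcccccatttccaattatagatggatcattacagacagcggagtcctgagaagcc

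The MITF window lies 197128 bases inside the gene, where 4 of its 18 GENCODE transcripts start within 50 bases, and is the promoter used in melanocytes. It held the TCF/LEF motif, read as CTTTGAT on this strand, 204 bases before the start and the CREB motif 152 bases before it. Among 35116 promoter windows of 300 bases, 2.62% held the TCF/LEF motif and 1.85% the CREB motif. The FOXD3 window lies just before the RefSeq gene start, and the 1 GENCODE transcript of the gene does not start within 50 bases. This window held a SOX motif (CTTTGTT on this strand, 5.2% of all windows), a CREB motif and the E-box CACGTG (7.26% of all windows), 126, 72 and 56 bases before the start. The TFAP2B window lies 516 bases inside the RefSeq gene, where 0 of its 3 GENCODE transcripts start within 50 bases. Whether this start is used in these cells was not tested. The window held the shorter SOX motif, read as ATTGTT on this strand and found in 10.1% of all windows, 114 bases before the start. It also held a CATGTG match 14 bases past the start, outside the stretch printed (11.1% of all windows). Its ratio of observed to expected CpG was 0.37, below the median of 0.58 over all windows and below the other members, which ranged from 0.54 for LEF1 to 0.88 for FOXD3. The AP-2 and SNAI2 motifs, held by 23.2% and 20.6% of all windows, were found in none of the 6. These matches describe letters and not binding.

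Per kilobase of exon, the members spanned a wide range in the control cells. SOX10 led with 167 ± 4.21 FPKM (FPKM being the CPM per kilobase of exon; SD, n = 3), above 99.1% of the 15302 tested genes with an exon length. TFAP2C followed with 50.8 ± 1.27 FPKM, above 95.7% of them. TFAP2B and LEF1 came next, at 6.79 ± 0.112 and 6.51 ± 0.209 FPKM, and their libraries overlapped. FOXD3 and MITF overlapped as well, at 3.49 ± 0.239 and 3.27 ± 0.18 FPKM, and so did SOX9 and PAX3, at 2.46 ± 0.147 and 2.31 ± 0.134 FPKM. TFAP2A stood at 1.88 ± 0.116 FPKM and SNAI2 lowest at 0.679 ± 0.0857 FPKM, above 20.6% of the tested genes. MITF, above 43.9% of them, was thus a middling mRNA in these cells. In the sgSEPHS2 libraries SOX10 and TFAP2C kept the first and the second place at 153 ± 3.5 and 75.3 ± 2.33 FPKM, while TFAP2B went to the last, at 0.0112 ± 0.0121 FPKM.

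Of the 10 members, all tested, 8 were lower and 1 was higher in the sgSEPHS2 libraries (edgeR quasi-likelihood test, Benjamini-Hochberg adjusted p under 0.05 over 16910 genes). Over all tested genes 45.4% passed, 23.4% lower and 22.0% higher. The values of the groups did not overlap for 9 of the 10 members, against 52.1% of all tested genes. At least 2-fold lower and called were 2 members, TFAP2B and SNAI2, against 5.67% of the tested genes. The median log2 fold change of the members was -0.41, and that of all tested genes 0.01. In RNA from bulk cells, fewer cells that hold an mRNA and less of it per cell cannot be told apart.

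**Figure D1:**
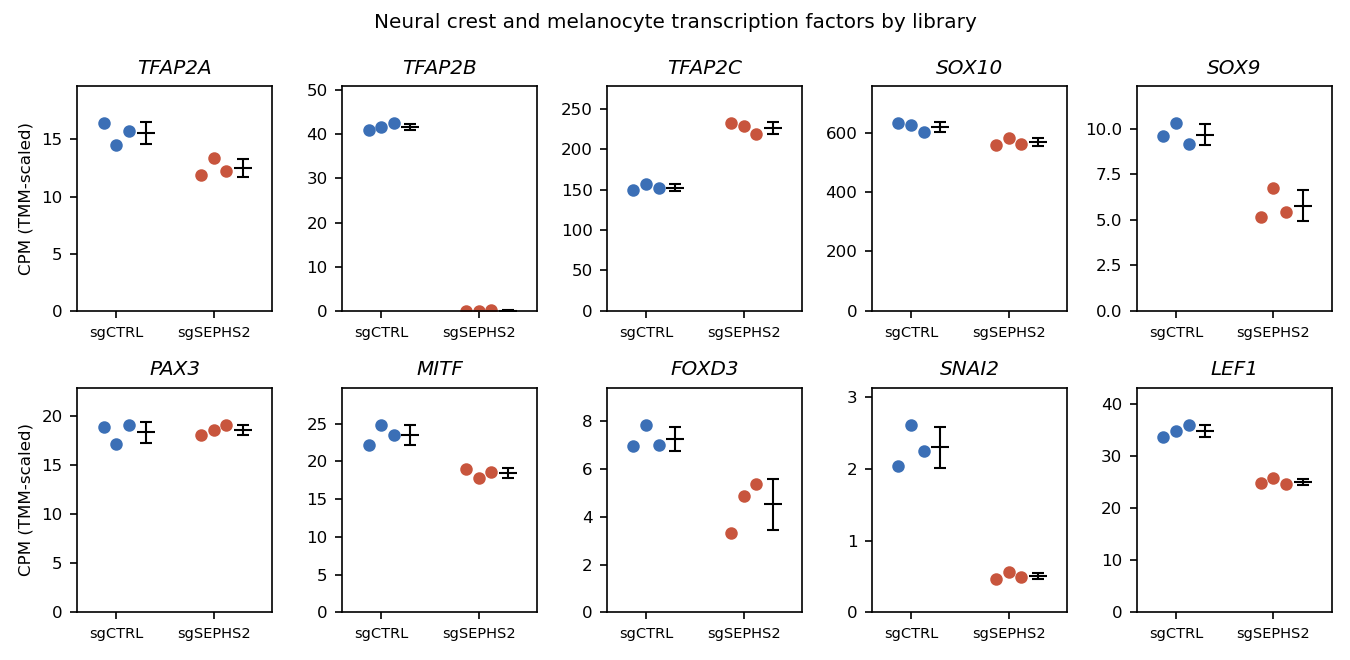
TMM-scaled CPM of each of the 10 transcription factors in the 3 sgCTRL (blue) and 3 sgSEPHS2 (red) libraries, on linear axes from 0, with the mean and SD of each group as a black bar. TFAP2B sits at 41.1 to 42.5 CPM in the control libraries and at 0 to 0.148 CPM in the others, TFAP2C is higher in all 3 sgSEPHS2 libraries, and PAX3 is the member whose groups overlap.

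The AP-2 factors, which bind DNA as dimers and can pair with each other, went in different directions. TFAP2B (chromosome 6, 50818355 to 50847619, GRCh38.p14) had 1732, 1719 and 1695 reads in the 3 controls and 2, 0 and 6 in the sgSEPHS2 libraries. The groups lie far apart, and the mRNA was nearly absent from the second. Summed over libraries and scaled for size, the control group held 614 times as many TFAP2B reads (5146 against 8, exact 95% conditional binomial interval 311 to 1423, covering counting error only, as PCR copies of a molecule are counted as reads). The log2 fold change was -9.20, SE 0.17 (edgeR adjusted p = 3.23e-19), which gave TFAP2B rank 1 by p and rank 9 by the size of the fall among the 16910 genes tested. Its fitted value ranged from -10.49 to -8.56 over the alternatives.

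TFAP2C (chromosome 20, 56629306 to 56639283), the main AP-2 mRNA of these cells, was the member that rose. Its level was 149, 156 and 152 CPM in the control libraries and 232, 229 and 218 CPM in the sgSEPHS2 libraries. All 3 of the latter lay above all controls, a rise of 1.48-fold (log2 fold change 0.57, SE 0.04, edgeR adjusted p = 3.88e-10). TFAP2A (chromosome 6, 10396677 to 10419659), the family member with the best known role at the neural plate border, had 16.4, 14.5 and 15.7 CPM in the control libraries and 11.9, 13.4 and 12.2 CPM in the others. It fell by 0.31 on the log2 scale, SE 0.08 (edgeR adjusted p = 0.00261), with groups that did not overlap. Its antisense partner TFAP2A-AS2, which overlaps the gene, had 2.22 ± 0.293 and 2.39 ± 0.0643 CPM (SD, n = 3; edgeR adjusted p = 0.642).

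By reads TFAP2B held 19.9% of AP-2 in the control group. Between genes of different length the share per kilobase is the nearer comparison. The length used was the union of all annotated exons, at 8274 bases for TFAP2A, 6149 for TFAP2B and 3005 for TFAP2C. Which transcripts were present was not tested, and the shares depend on this length. Per kilobase, TFAP2C made up 85.4% ± 0.455 of the summed AP-2 reads in the control group, TFAP2B 11.4% ± 0.229 and TFAP2A 3.17% ± 0.257 (SD, n = 3). In the sgSEPHS2 libraries TFAP2C made up 98.0% ± 0.127, TFAP2A 1.97% ± 0.13 and TFAP2B 0.0149% ± 0.0164. Summed AP-2 mRNA went from 59.4 ± 1.19 to 76.9 ± 2.33 FPKM, the gain in TFAP2C being larger than the loss of TFAP2B on this scale. Of the other AP-2 genes, TFAP2E had an edgeR adjusted p = 0.93 and TFAP2D was not analysed here.

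**Figure D2:**
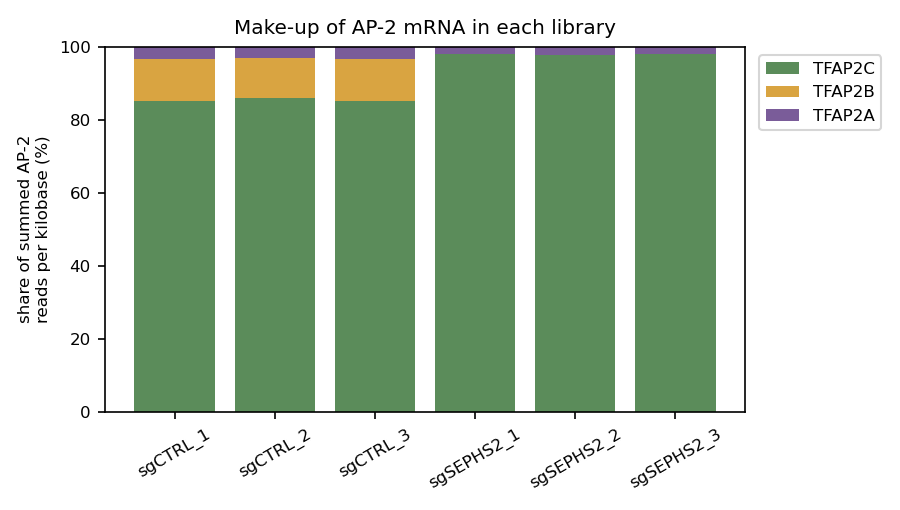
Share of the summed AP-2 reads per kilobase of exon held by TFAP2C, TFAP2B and TFAP2A in each library, as stacked bars from 0 to 100%. The TFAP2B share is 11.2% to 11.6% in the sgCTRL libraries and at most 0.0325% in the sgSEPHS2 libraries, where TFAP2C takes at least 97.9%.

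The SOX factors were lower, by unequal amounts. SOX9 (chromosome 17, 72121020 to 72126416), which acts in early crest and cartilage cells, had 9.61, 10.3 and 9.14 CPM in the control libraries and 5.15, 6.76 and 5.43 CPM in the sgSEPHS2 libraries. It fell by 0.74 on the log2 scale, SE 0.11 (edgeR adjusted p = 1.36e-05), and the highest sgSEPHS2 library lay below the lowest control. SOX10 (chromosome 22, 37972312 to 37984555), which maintains crest, glial and melanocyte cells, had 631, 625 and 601 CPM against 560, 584 and 562 CPM. The groups stood apart by a small step, 8.16% of the control mean, with log2 fold change -0.12 and SE 0.04 (edgeR adjusted p = 0.0164). This call was lost without control replicate 1 (adjusted p = 0.0661), control replicate 2 (adjusted p = 0.0592) or sgSEPHS2 replicate 3 (edgeR adjusted p = 0.0502). POLR2F, a subunit of RNA polymerase, is annotated across SOX10 on the opposite strand and had a log2 fold change of 0.21 (edgeR adjusted p = 8.56e-04); the strand setting of the counts is not given in the sources used here, so reads in the overlap cannot be assigned. SOX10 exceeded SOX9 67.9 ± 3.04 times per kilobase in the control group and 106 ± 12.4 times in the other (SD, n = 3).

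MITF (chromosome 3, 69739464 to 69968332), the master regulator of melanocytes, had 22.2, 24.8 and 23.5 CPM in the control libraries and 19, 17.7 and 18.7 CPM in the sgSEPHS2 libraries. All sgSEPHS2 values lay below all controls, and the level was 21.4% lower (log2 fold change -0.35, SE 0.06, edgeR adjusted p = 1.24e-04). The count covers every isoform of the gene, and does not single out the melanocyte form that starts at the promoter printed above. PAX3 (chromosome 2, 222199887 to 222298998), which acts with SOX10 on that promoter, had 18.8, 17.1 and 19.1 CPM in the control libraries and 18, 18.5 and 19.1 CPM in the others. The groups overlapped, and no difference was detected (log2 fold change 0.02, SE 0.07, edgeR adjusted p = 0.866); its sign turned to -0.0307 without control replicate 2 and to -0.0035 without sgSEPHS2 replicate 3. LEF1 (chromosome 4, 108047548 to 108168932), the partner of beta-catenin whose motif the MITF window holds, had 33.8, 34.8 and 36 CPM against 24.9, 25.8 and 24.7 CPM. It fell by 0.47 on the log2 scale, SE 0.05 (edgeR adjusted p = 3.96e-07), and its 3 sgSEPHS2 values lay close together, below all controls. LEF1-AS1, antisense to it, was low at 0.625 and 0.505 CPM (edgeR adjusted p = 0.623), and CCDC140, which overlaps PAX3, had 0.394 and 0.305 CPM (edgeR adjusted p = 0.554).

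FOXD3 (chromosome 1, 63322567 to 63325128), a crest specifier that represses MITF in crest cells, had 6.95, 7.85 and 7.01 CPM in the control libraries and 3.34, 4.88 and 5.38 CPM in the sgSEPHS2 libraries. The groups did not overlap, although sgSEPHS2 replicate 1 was lower than the other two, with log2 fold change -0.67, SE 0.14 (edgeR adjusted p = 4.87e-04). FOXD3-AS1 overlaps FOXD3 on the opposite strand and had 7.72 ± 1.06 and 6.06 ± 0.877 CPM (SD, n = 3), with overlapping groups and a log2 fold change of -0.34 (edgeR adjusted p = 0.0287). That call was lost without control replicate 3 (adjusted p = 0.171), sgSEPHS2 replicate 1 (adjusted p = 0.102) or sgSEPHS2 replicate 3 (edgeR adjusted p = 0.09). Without strand, reads of this pair cannot be told apart. SNAI2 (chromosome 8, 48917598 to 48921429), which represses epithelial cadherins, had 86, 108 and 90 reads in the 3 controls and 16, 24 and 20 in the others, or 2.3 ± 0.291 and 0.506 ± 0.0457 CPM (SD, n = 3). It was low in both groups and fell 4.51-fold (log2 fold change -2.17, SE 0.24, edgeR adjusted p = 1.70e-07), the second largest fall among the members.

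**Figure D3:**
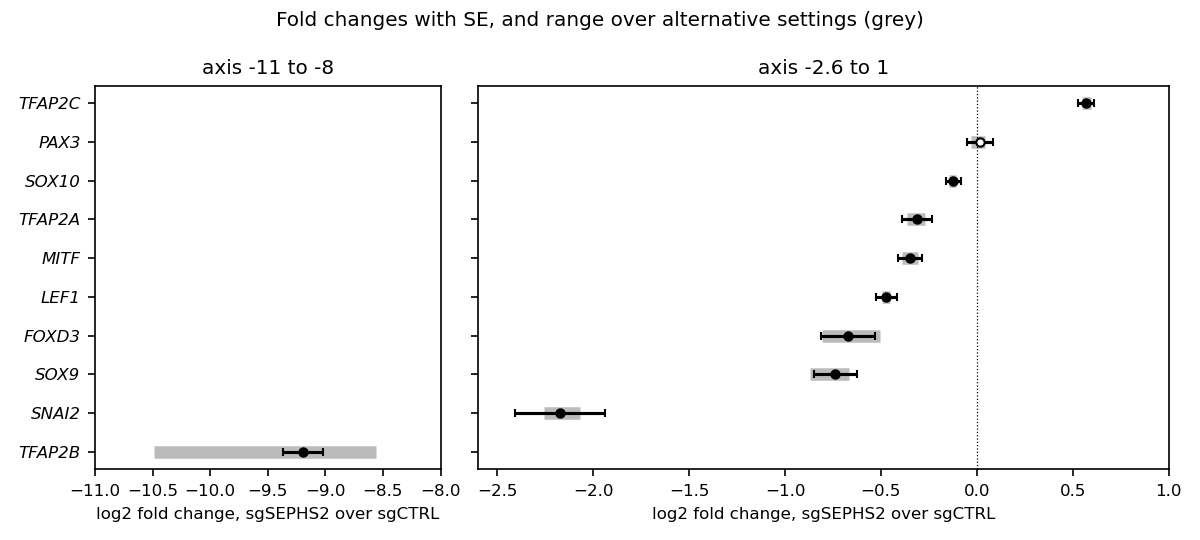
Log2 fold change (sgSEPHS2 over sgCTRL) of each member with its SE (black; the open circle did not pass), and the range over the alternative settings in grey, on 2 separate linear axes. TFAP2B lies near -9.20, SNAI2 at -2.17, TFAP2C at 0.57 and PAX3 at 0.02, and the other members between -0.74 and -0.12.

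The tested genes nearest to TFAP2B were compared with it, a comparison added after its value was seen. Of the 24 other genes tested within 4 Mb, 8 were higher, 2 were lower and 14 did not pass. Thus 10 of the 24 were called, near the 45.4% of all tested genes. Their log2 fold changes ran from -0.68 for C6orf141 to 0.50 for ADGRF1. The nearest tested genes on either side, C6orf141 and MCM3, a subunit of the replicative helicase, had -0.68 and 0.33 (edgeR adjusted p = 2.15e-09 and 2.16e-06). C6orf141 lies 1256 kb before TFAP2B and MCM3 1416 kb after it, and no other gene between them was tested. The near loss of reads at TFAP2B was therefore not seen at any tested neighbour in this window. A change confined to the stretch between C6orf141 and MCM3 could not be seen in this comparison. Within 4 Mb of MITF 10 of 23 other tested genes were called, also near the 45.4% of all tested genes. Of the 23 around MITF, 4 were higher, 6 lower and 13 did not pass. The 3 next tested genes past its end were SAMMSON, a long noncoding RNA of melanoma (-0.83, edgeR adjusted p = 0.00107), the forkhead factor FOXP1 (-2.64, edgeR adjusted p = 6.36e-11) and EIF4E3, a cap-binding protein (-3.71, edgeR adjusted p = 1.66e-07). FOXP1 had 220, 220 and 267 reads in the 3 controls and 31, 37 and 40 in the others, so that all sgSEPHS2 values were far below all controls. The next tested gene beyond them, RYBP, stood at 91.7 and 95.8 CPM (log2 fold change 0.06, edgeR adjusted p = 0.238).

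**Figure D4:**
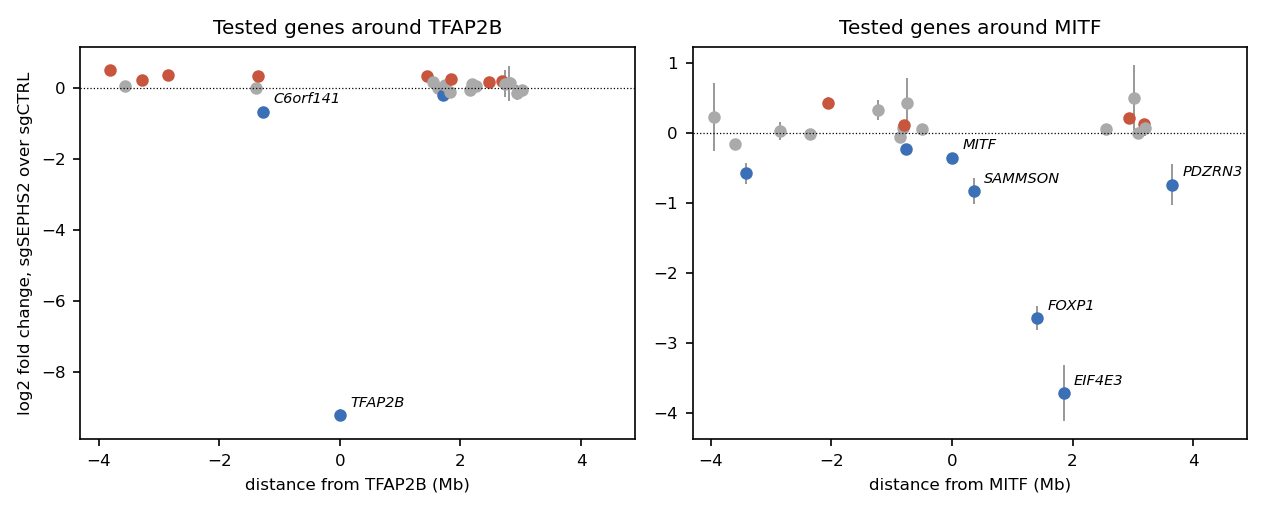
Log2 fold change (sgSEPHS2 over sgCTRL, with SE) of each tested gene against its distance in Mb from the centre of TFAP2B (left) or MITF (right), red for higher, blue for lower and grey for not passed. TFAP2B at -9.20 stands alone among tested neighbours between -0.68 and 0.50, the nearest of which lie at -1.28 and 1.44 Mb. MITF at -0.35 is followed by SAMMSON, FOXP1 and EIF4E3 at -0.83, -2.64 and -3.71.

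Lists of genes around the members were counted in the same fit, against the 45.4% of all tested genes that passed. Of 18 tested paralogs of the members, 8 fell and 1 rose (median log2 fold change -0.03). SOX11, a factor of immature neurons, fell from 145 ± 7.94 to 54.7 ± 2.9 CPM (SD, n = 3; log2 fold change -1.40, edgeR adjusted p = 5.81e-15). SOX4, its close relative, fell by 0.91 and SOX5 by 0.48 on the log2 scale. SOX8, the third member of the SOX9 and SOX10 group, had 28, 48 and 41 reads in the 3 controls and 0 in each sgSEPHS2 library. By the exact 95% conditional binomial interval, covering counting error only, it was at least 29.8-fold lower (edgeR adjusted p = 3.19e-07). SOX2 (edgeR adjusted p = 0.987) and SNAI1 (edgeR adjusted p = 0.704) did not pass. The gene that rose was SOX13, with a log2 fold change of 0.23 (edgeR adjusted p = 0.0349). Its call was lost under DESeq2 (adjusted p = 0.099), under the filter of 1 CPM in 3 libraries (edgeR adjusted p = 0.0513), and without control replicate 1 or 3 or sgSEPHS2 replicate 1 or 2 (edgeR adjusted p = 0.0625 to 0.153). The other 4 that fell were TCF7, TCF7L1 and TCF7L2, paralogs of LEF1, and TFEB, a paralog of MITF.

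Of 24 other neural crest factors tested, 12 fell, 1 rose and 11 did not pass (median -0.28). PRRX1, a mesenchymal homeobox factor, fell from 398 ± 18.1 to 171 ± 9.1 CPM (SD, n = 3; log2 fold change -1.22, edgeR adjusted p = 1.54e-14). MSX2, a neural plate border factor, NR2F1, which acts in crest enhancers, and DLX2, of the facial crest, had log2 fold changes of -2.45, -1.04 and -0.68. RXRG, a retinoid receptor of crest-like melanoma cells, was picked out after its values were seen. It had 30, 20 and 17 reads in the 3 controls and 0 in each of the others. By the same kind of interval RXRG was at least 16.9-fold lower (edgeR adjusted p = 6.59e-06). Of 8 epithelial-mesenchymal factors, 4 fell and 1 rose (median -0.12), or 3 in all at an adjusted p under 0.01. Besides PRRX1, ZEB1, which represses epithelial genes, fell from 88.9 ± 2.38 to 65.3 ± 6.86 CPM (SD, n = 3; log2 fold change -0.45, edgeR adjusted p = 2.09e-06). FOXC2 had -0.79 and TCF4 -0.20, but their calls were lost without control replicate 2 (edgeR adjusted p = 0.0963) and without sgSEPHS2 replicate 1 (edgeR adjusted p = 0.0861), respectively. TWIST2, a mesenchymal factor and the one that rose, had 0.36 (edgeR adjusted p = 0.0199). Its call was lost under DESeq2 (adjusted p = 0.0531) and without control replicate 1 (adjusted p = 0.0816), control replicate 3 (adjusted p = 0.0548) or sgSEPHS2 replicate 2 (edgeR adjusted p = 0.128).

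Of 19 tested regulators of MITF, 9 fell and 1 rose (median -0.10). EDNRB, the endothelin receptor of melanoblasts, had 3212, 3253 and 3191 reads in the 3 controls and 956, 1276 and 1245 in the others, with no overlap (log2 fold change -1.41, SE 0.05, edgeR adjusted p = 5.53e-15). ADCY1, which makes cyclic AMP, FOXO1, a forkhead factor, and BHLHE40, a repressor, had log2 fold changes of -2.38, -1.05 and -0.52. EDNRB and FOXO1 lie on chromosome 13, whose 319 tested genes had a median of -0.41; the part of this shift in their values was not tested. Of the partners at the MITF promoter, CREB1 and CTNNB1, which encodes beta-catenin, had log2 fold changes of -0.08 and 0.02 (edgeR adjusted p = 0.167 and 0.714).

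Of 23 tested melanocyte targets of MITF and SOX10, 7 rose, 3 fell and 13 did not pass (median 0.12). The 43.5% called lay near the 45.4% of all tested genes, so the list did not stand out by its calls. CDK2, a cell cycle kinase under MITF control, rose from 64.1 ± 0.68 to 91.3 ± 2.67 CPM (SD, n = 3; log2 fold change 0.51, edgeR adjusted p = 4.81e-09). GPNMB, a melanosome glycoprotein, and RAB38, of melanosome traffic, rose by 0.34 and 0.45, and APOE, a lipid carrier, fell by 1.50 on the log2 scale. MLANA and PMEL had few reads and gave no call (edgeR adjusted p = 0.682 and 0.995). Of 17 tested crest and glial targets of SOX10, 5 rose, 3 fell and 9 did not pass (median 0.04). NGFR, the crest stem cell receptor, had 249, 269 and 237 reads in the 3 controls and 963, 982 and 866 in the others, a log2 fold change of 1.97 (edgeR adjusted p = 6.88e-13). GFRA1, a receptor for the glial growth factor GDNF, had 103, 132 and 98 reads against 0, 2 and 0, a ratio of 159 (95% interval 43.7 to 1318, counting error only).

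Of the 21 tested markers of undifferentiated, low-MITF melanoma, 11 fell and 9 rose (95.2% passed, median -0.28). They did not move as a group: tenascin C (TNC), TGFBI and INHBA, all secreted proteins, had log2 fold changes of -1.31, -1.12 and -0.83, while NGFR, counted here again, had 1.97. Of 14 tested targets of LEF1 and beta-catenin, 6 fell and 8 did not pass (median -0.15). TNFRSF19, a receptor also on chromosome 13, fell from 142 ± 4.72 to 75.4 ± 4.49 CPM (SD, n = 3; log2 fold change -0.91, edgeR adjusted p = 2.05e-12). SALL4, a stem cell factor, NKD1, a feedback inhibitor of WNT signalling, and TCF7, a paralog of LEF1, had -1.67, -2.28 and -0.92. The feedback gene AXIN2 (-0.37, edgeR adjusted p = 0.0885) and CCND1 (-0.06, edgeR adjusted p = 0.266) gave no call.

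Of 14 tested adhesion genes linked to SNAI2, 4 fell and 3 rose (median 0.02). CLDN1, a tight junction protein, had 54, 61 and 41 reads in the 3 controls and 166, 206 and 192 in the others, with a log2 fold change of 1.92 (edgeR adjusted p = 5.11e-09). JUP, or plakoglobin, and CDH2, or N-cadherin, had -1.51 and -0.32, and vimentin (VIM) 0.23. CDH1, or E-cadherin, held 48 and 32 reads over the groups and was left out by the filter. Of 8 tested antisense or neighbouring genes fixed by name, 3 rose and 2 fell (median -0.08). They include POLR2F, FOXP1 and FOXD3-AS1 above, and the noncoding LINC01152 before SOX9 (0.64, edgeR adjusted p = 0.0077), whose sign is opposite to that of SOX9, and LINC01271, on the chromosome of TFAP2C but not next to it (0.82, edgeR adjusted p = 0.00651), whose call was lost without sgSEPHS2 replicate 2 (adjusted p = 0.055).

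**Figure D5:**
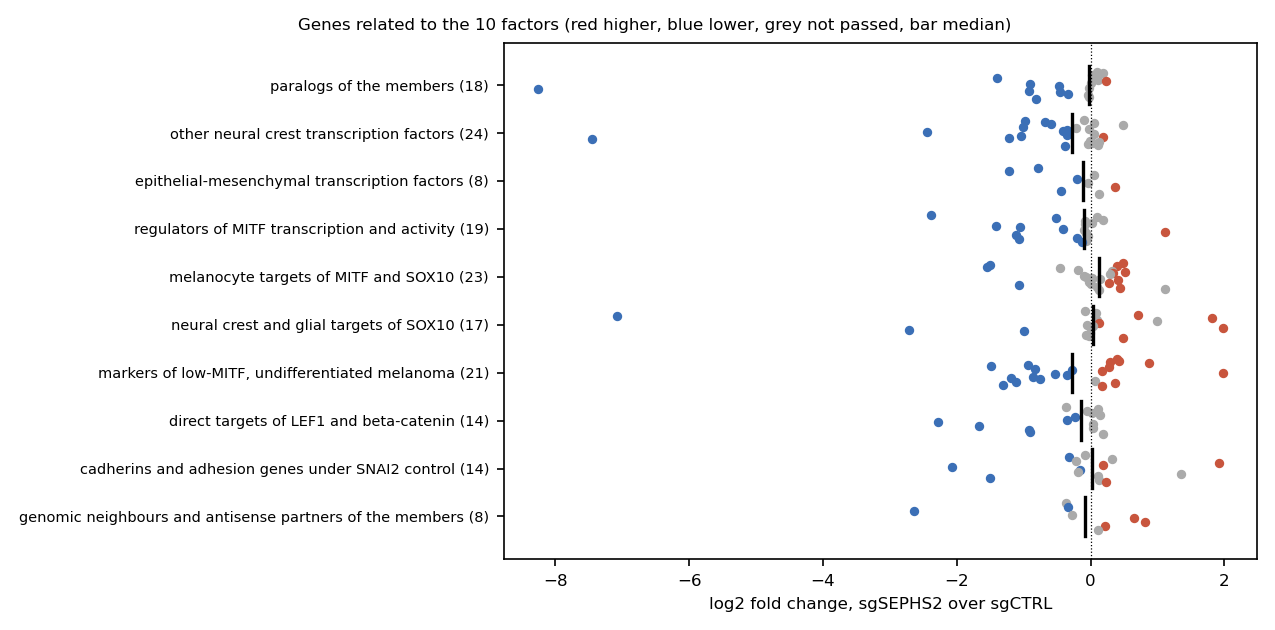
Log2 fold change (sgSEPHS2 over sgCTRL) of each tested gene in 10 lists of genes related to the members, with the number tested in parentheses, red for higher, blue for lower, grey for not passed and a black bar at the median. The medians lie between -0.28 and 0.12; the 3 points beyond -7 are SOX8, RXRG and GFRA1, whose fitted values rest on at most 2 reads in the sgSEPHS2 group.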

How the data were processed

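The authors deposited 1 table of raw counts per gene symbol for the 6 libraries. The submitters' processing notes list featureCounts 2.0.6, SAMtools 1.21, HISAT2 2.2.1 and FastQC 0.12.1, with the build GRCh38. Annotation, strand setting and multi-mapping rule are not given in the sources used, and overlapping or antisense genes are therefore uncertain. Groups and replicate numbers come from the sample titles.

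The whole table was fitted in R 4.3.3 with edgeR 4.0.16 (TMM factors, default expression filter, two-sided quasi-likelihood test, no replicate block), and a gene was called at a Benjamini-Hochberg adjusted p under 0.05. The filter left 16910 of 21631 genes. None of the 10 members shared its counts with another symbol. FPKM used the union of GENCODE 29 exons, and positions and promoters came from RefSeq (GRCh38.p14). The members and lists were chosen with earlier results of these data known. Named were all members, the overlapping genes, and up to 4 genes of each list by smallest adjusted p, and any other gene named was picked after its values were seen. Some genes of the lists are not reported here by name. Alternatives were no filter or one of 1 CPM in 3 libraries, upper-quartile or RLE factors, DESeq2 1.42.0, limma-voom (limma 3.58.1), the block, leaving out each library, and an adjusted p under 0.01. Factors without chromosomes 13 and 18 were added after the data were seen. The procedure was tested on simulated data. Figures were drawn with matplotlib 3.10.9.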

Additional observations from a re-analysis of the deposited data

How the results depend on the processing

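Over 14 alternatives for each of the 10 members, 135 of 140 values kept their direction and their side of the threshold. The exceptions were leave-one-out values of 2 genes: SOX10 ranged from -0.15 to -0.11 on the log2 scale (edgeR adjusted p = 0.0177 to 0.0661), and PAX3, which never passed, from -0.0307 (without control replicate 2) to 0.0412. At an adjusted p under 0.01, members lower numbered 7, with SOX10 not called, and the epithelial-mesenchymal list had 3 calls in place of 5. With the replicate number as a block, 8 members were lower and 1 was higher, as without it, and the block ended no member's call. Deviations of same-numbered libraries had correlations of 0.01, -0.09 and -0.25. With 3 libraries per group, these values cannot show whether the numbers pair the samples. By reads rather than per kilobase, TFAP2C, TFAP2B and TFAP2A held 72.7%, 19.9% and 7.42% of AP-2 in the control group. Leaving chromosomes 13 and 18 out of the factors moved no member's call. Depth limits TFAP2B, SOX8, RXRG and GFRA1, whose sgSEPHS2 level is known only as a few reads.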

Other observations

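Some genes of the lists rose where the members named beside them fell; they were picked out after their values were seen. Among the targets of SOX10, the gap junction gene GJB1 had 62, 50 and 50 reads in the 3 controls and 143, 225 and 182 in the sgSEPHS2 libraries, a log2 fold change of 1.82 (edgeR adjusted p = 1.16e-08). FABP7, a fatty acid binding protein of glia, had 0.71 (edgeR adjusted p = 6.69e-07). All sgSEPHS2 values of both lay above all controls. KITLG, the ligand of the melanoblast receptor KIT, had 56, 72 and 76 reads in the 3 controls and 113, 163 and 146 in the others, with a log2 fold change of 1.11 (edgeR adjusted p = 1.82e-05), while KIT itself held few reads and gave no call (edgeR adjusted p = 0.875). ERBB3, another SOX10 target and abundant here, stood at 577 ± 5.71 and 608 ± 10.2 CPM (SD, n = 3; edgeR adjusted p = 0.127).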
